A study of Mus musculus with 10 samples.

Results

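The SLAM family receptors described here are the 6 genes Slamf1, Cd48, Cd84, Ly9, Slamf6 and Slamf7, taken by name from a table of 17658 genes. All 6 were among the 10225 genes that passed the filter on low values, a 10-library mean no lower than 1 FPKM. FPKM are fragment counts scaled by transcript length and by the mapped fragments of each library, so levels can be compared between genes. Polyadenylated RNA was sequenced from B cells of C57BL/6 mice aged 10 weeks, isolated from spleen and lymph node by magnetic removal of other cells. The wild-type groups carried Nr4a1+/+ and the knockout groups Nr4a1-/-. Cells were left without stimulation (1 library per genotype, lettered A) or were treated for 2 hours with anti-IgM at 10 µg/mL, which crosslinks the surface IgM of the B cell antigen receptor (4 libraries per genotype, lettered A to D). The labels name no Cre or other transgene, and Nr4a1-/- is given without tissue restriction. They do not say whether libraries came from separate mice, so p-values measure the spread between these samples, which may be technical.

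SLAM receptors are immunoglobulin-superfamily proteins on the surface of blood cells. Most of them bind a copy of themselves on the neighbouring cell, which makes them both ligand and receptor, and their tails carry tyrosine switch motifs that recruit the small adaptors SAP and EAT-2 or, in their absence, phosphatases. On B cells they take part in contacts with T cells, in germinal centre responses and in the setting of antigen receptor signals. Nr4a1 encodes Nur77, an orphan nuclear receptor induced by antigen receptor signalling.

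The targeted gene did not fully separate the genotypes at the level of whole-gene FPKM. Nr4a1 was at 126 FPKM in both unstimulated libraries. After anti-IgM the knockout-labelled mean was 0.869 of the wild-type mean, and the groups overlapped (log2 difference -0.20, SE 0.0531, limma adjusted p = 0.0432). This passed an adjusted p under 0.05, but did not pass without the filter on low values (limma adjusted p = 0.122). Whole-gene values do not show which part of the gene the reads came from, so they could not check the labels. Every direction below is therefore between libraries as labelled. Relative depth lay between 0.899 and 1.09, read from 28 low genes whose values stood near 1, 2 or 3 times a lowest step (within 0.2 on the natural log scale), and the absolute depth is unknown. The B cell markers Cd79a (469 to 529 FPKM) and Ms4a1 (215 to 236 FPKM) were abundant in every stimulated library, where 10 T cell markers summed to between 0.98 and 1.77 FPKM.

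The 6 genes lie side by side on chromosome 1, in the interval chr1:171588613-171948958 of GRCm38.p6 (the RefSeq assembly that corresponds to mm10, the build in the submitters' processing notes), which spans 360.3 kb. By RefSeq positions it holds no other gene among the 16172 of the deposited table that could be placed, out of 17658. By GENCODE positions, Cd244a (Cd244 in the deposited table) reaches into it. In order along the chromosome they are Ly9 (chr1:171588613-171607410, minus strand), Slamf7 (chr1:171632403-171653037, minus strand), Cd48 (chr1:171681245-171705258, plus strand), Slamf1 (chr1:171767131-171801184, plus strand), Cd84 (chr1:171839697-171890718, plus strand) and Slamf6 (chr1:171917458-171948958, plus strand). All are protein-coding genes. In GENCODE, Cd244a overlaps Ly9, Gm37065 overlaps Slamf6 and Gm37787 overlaps Slamf7, each on the opposite strand, and the use of strand in counting is not given in the sources used here, so reads of these pairs may not be told apart. On the same strand Gm37010 overlaps Cd48 and Mir7683 overlaps Slamf7, and reads there cannot be told apart by strand.

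RefSeq promoter windows matched 5 of the 6 members, all but Ly9. The 250 bases before the annotated start are shown for Slamf1, which had the largest genotype difference of the family, and for Cd84 and Slamf7, the members in which a searched motif was found. Capitals mark matches, whose positions are counted back from the start, and each sequence reads 5′ to 3′ on the strand of its gene.
Slamf1, chr1:171766882-171767131, plus strand: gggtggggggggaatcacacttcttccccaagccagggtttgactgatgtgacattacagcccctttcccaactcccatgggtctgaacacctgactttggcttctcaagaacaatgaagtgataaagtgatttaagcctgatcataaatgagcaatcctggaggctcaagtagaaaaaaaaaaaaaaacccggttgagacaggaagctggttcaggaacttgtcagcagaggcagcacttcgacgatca
Cd84, chr1:171839447-171839696, plus strand: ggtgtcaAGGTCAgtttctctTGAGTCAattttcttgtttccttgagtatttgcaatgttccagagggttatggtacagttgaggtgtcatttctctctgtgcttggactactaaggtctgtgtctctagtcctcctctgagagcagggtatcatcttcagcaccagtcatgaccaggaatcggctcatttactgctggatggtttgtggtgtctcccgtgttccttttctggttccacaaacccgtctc
Slamf7, chr1:171649000-171649249, minus strand: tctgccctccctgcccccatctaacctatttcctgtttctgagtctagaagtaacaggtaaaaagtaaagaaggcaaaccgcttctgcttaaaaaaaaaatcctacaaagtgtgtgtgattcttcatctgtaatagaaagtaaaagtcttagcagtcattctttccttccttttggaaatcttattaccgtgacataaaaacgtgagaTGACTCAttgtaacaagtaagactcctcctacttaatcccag
The monomer element bound by Nr4a receptors, AAAGGTCA, was in 0 of the 5 windows on either strand and is in 1.34% of all 32851 RefSeq windows of this length. The NF-kB element was likewise in 0 of the 5 and in 7.25% of all. After these planned searches, 2 shorter motifs were added. The core AGGTCA, which is contained in AAAGGTCA, began at position -243 of Cd84 and is in 4607 of the 32851 windows. The AP-1 element (TGACTCA or TGAGTCA, which are reverse complements) began at -229 of Cd84 and -42 of Slamf7 and is in 4.46% of all windows. The matches are letters in a window, not measured binding. The Slamf7 window precedes a start that lies inside the annotated span of the gene.

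Without stimulation the family was led by Cd48 and Ly9 in both genotypes, followed by Slamf7, Slamf6, Cd84 and Slamf1. After anti-IgM the order was Slamf7, Ly9, Cd48, Cd84, Slamf6 and Slamf1 in both genotypes. Neighbours in this order did not overlap between the 4 wild-type libraries. In the knockout-labelled libraries, Cd84 and Slamf6 overlapped and the other neighbours did not. Among the 10225 genes tested, Slamf7 stood at percentile 90.6 of wild-type levels after anti-IgM and Slamf1 at percentile 29.8.

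**Figure D1:**
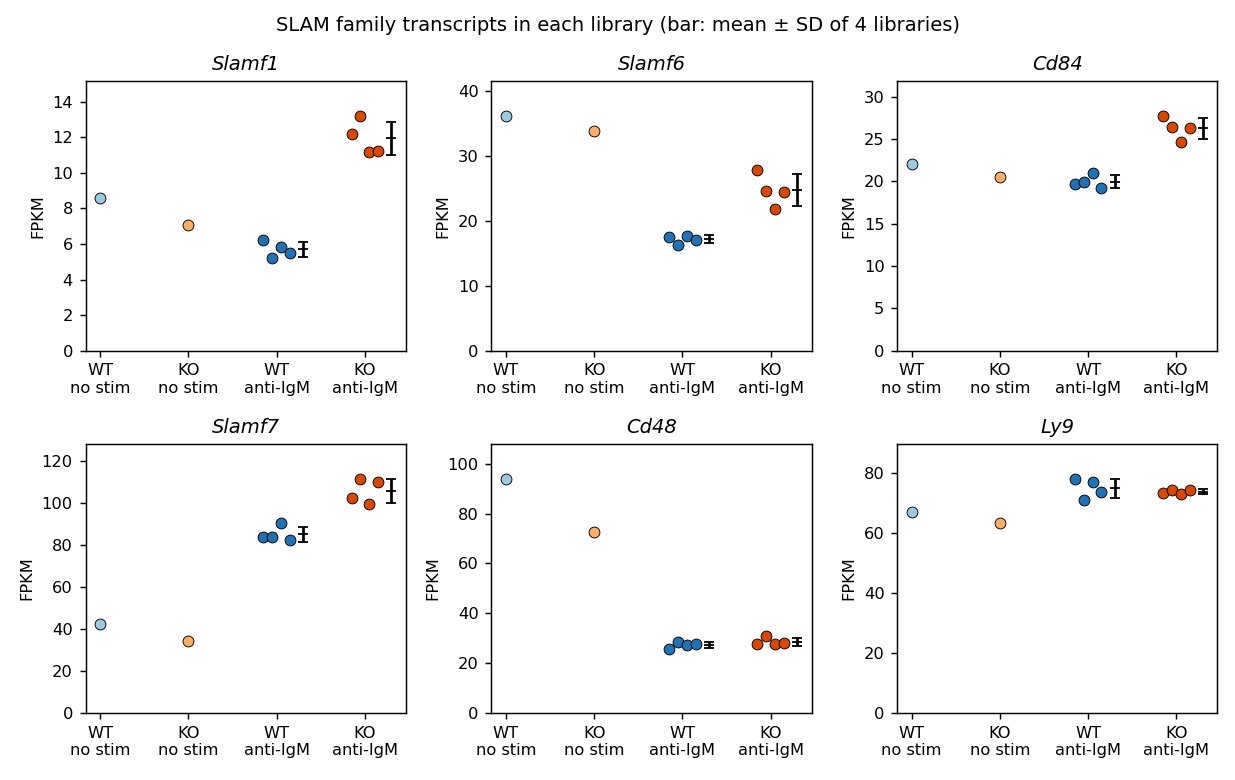
FPKM of each SLAM gene (vertical axes, from 0) in every library of the 4 groups (horizontal axes), with points for libraries and a bar for the mean ± SD of 4 stimulated libraries; KO stands for knockout-labelled libraries. For Slamf1, Slamf6, Cd84 and Slamf7 the 4 stimulated knockout-labelled libraries lie above all 4 stimulated wild-type libraries, and for Cd48 and Ly9 the groups overlap.

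After anti-IgM, 4 of the 6 SLAM genes were higher in the knockout-labelled libraries by limma and 0 were lower (0 also at an unadjusted p under 0.05, against 14.2% of tested genes). Slamf1 was 2.09-fold higher, Slamf6 1.44-fold, Cd84 1.31-fold and Slamf7 1.24-fold, while Cd48 and Ly9 did not pass the test. A gene was called at a limma adjusted p under 0.05 over all genes tested. By this rule 9.72% of tested genes were called, 3.91% higher and 5.81% lower. Stimulated groups were fully separated for the same 4 members, all higher. Over all tested genes 15.5% were separated, 5.96% higher and 9.57% lower. The median log2 difference was 0.34 over the 6 members and -0.024 over all genes tested.

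Slamf1 encodes CD150, a self-binding receptor that is also a sensor of bacteria on phagocytes. It stood at 6.25, 5.23, 5.81 and 5.50 FPKM in wild-type libraries A to D, against 12.2, 13.2, 11.2 and 11.2 FPKM in the knockout-labelled libraries. The lowest knockout-labelled library was well above the highest wild-type library. The log2 difference was 0.95 (SE 0.0663, limma adjusted p = 3.17e-05; exact permutation p = 0.0286, two-sided, the least that 70 labellings allow). With a pseudocount of 5 in place of 1 it was 0.66, still past the threshold.

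Slamf6 encodes Ly108, a self-binding receptor with roles in B cell tolerance and T cell help. It was at 17.6, 16.4, 17.8 and 17.04 FPKM in wild-type libraries A to D, against 27.9, 24.6, 21.9 and 24.5 FPKM in the knockout-labelled libraries. The knockout-labelled libraries were more spread out but did not reach down to wild type. Its log2 difference was 0.50 (SE 0.0641, limma adjusted p = 0.00110; exact permutation p = 0.0286).

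Cd84 encodes a self-binding receptor that supports adhesion between B and T cells. It was at 19.7, 19.95, 20.99 and 19.3 FPKM in wild-type libraries A to D, against 27.7, 26.4, 24.6 and 26.3 FPKM in the knockout-labelled libraries. The groups were separated by more than either group's range. On the log2 scale the difference was 0.38 (SE 0.0415, limma adjusted p = 0.000438; exact permutation p = 0.0286).

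Slamf7 encodes CRACC, a self-binding receptor best known from plasma cells and natural killer cells. It was at 83.95, 83.7, 90.6 and 82.5 FPKM in wild-type libraries A to D, against 103, 112, 99.7 and 110.1 FPKM in the knockout-labelled libraries. All 4 of the latter were above wild-type library C, the highest of its group. This gave a log2 difference of 0.31 (SE 0.0435, limma adjusted p = 0.00172; exact permutation p = 0.0286). In FPKM this was the largest gap of the family, from 85.2 ± 3.66 to 106 ± 5.74 (SD, n = 4 each).

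Cd48 encodes a lipid-anchored ligand without a signalling tail, bound by CD244 and, in mice, by CD2. It was at 25.6, 28.4, 27.3 and 27.8 FPKM in wild-type libraries A to D, against 27.8, 31.1, 27.8 and 28.2 FPKM in the knockout-labelled libraries. The groups overlapped, with library B the highest of each. The log2 difference was 0.071 (SE 0.0455, limma adjusted p = 0.417; exact permutation p = 0.257). Ly9 encodes CD229, a self-binding receptor that restrains innate-like lymphocytes. It was at 78.2, 71.1, 77.1 and 73.9 FPKM in wild-type libraries A to D, against 73.4, 74.6, 73.1 and 74.6 FPKM in the knockout-labelled libraries, so all of the latter lay inside the wild-type range. The log2 difference was -0.021 (SE 0.0314, limma adjusted p = 0.761; exact permutation p = 0.486), and it was 0.022 with median-of-ratios scaling.

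In bulk RNA, fewer cells of a type and less RNA per cell cannot be told apart. SLAM genes are also expressed outside B cells, so marker lists are given here. The 5 plasma cell markers summed to 70.8 to 76.8 FPKM in stimulated wild-type libraries and to 77.1 to 94.8 FPKM in the knockout-labelled set, with Prdm1 called higher (1 of 4 tested); Xbp1 was the highest of the list. The 8 marginal zone B cell markers summed to 250.11 to 282 FPKM and 225 to 250.04 FPKM, with 1 called higher and 3 lower. Of all tested genes 3.91% were called higher and 5.81% lower. Neither the plasma cell sums nor the marginal zone sums overlapped between genotypes (exact permutation p = 0.0286 for each). The 8 myeloid markers ranged from 40.6 to 141 FPKM and from 24.6 to 104 FPKM, led by Lyz2. Of 6 NK cell markers found, the sums were 1.23 to 2.02 and 1.47 to 1.70 FPKM. The dendritic cell sums (14.8 to 15.9 and 15.3 to 17.4 FPKM) and the germinal centre sums (27.3 to 32.9 and 19.6 to 40.6 FPKM) overlapped between genotypes. Of the 3 dendritic cell markers tested Zbtb46 was called higher (0.39, limma adjusted p = 0.00332) and Flt3 lower (-0.44, limma adjusted p = 0.00488). The B cell marker Cd79b was called lower. The part of these lists in the SLAM differences was not tested. The T cell sum after anti-IgM was 1.22 to 1.77 FPKM in wild type and 0.98 to 1.59 FPKM in the knockout-labelled libraries. Its part in the SLAM differences was likewise not tested.

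Anti-IgM moved the family in different directions. Fitted over both genotypes (8 stimulated against 2 unstimulated libraries, genotype as a term), Slamf7 rose, Cd48 fell, and the other 4 members did not pass. The call required that the adjusted p be under 0.05 and the log2 change no smaller than 1 in either direction. That call was met by 20.3% of tested genes, 7.94% higher and 12.4% lower. The median log2 change was 0.092 over the members and -0.17 over all genes tested. Rescaling to the same sum moved the latter to -0.029 and median-of-ratios scaling to 0.035, so changes are to be read against that shift.

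Slamf7 went from 42.4 FPKM to a stimulated mean of 85.2 ± 3.66 (SD, n = 4) in Nr4a1+/+ cells, and from 34.4 FPKM to 106 ± 5.74 (SD, n = 4) where the label is knockout, a 2.01-fold and a 3.08-fold rise. Its log2 change over both genotypes was 1.29 (SE 0.106, limma adjusted p = 5.36e-07). Cd48 went from 93.9 FPKM to a stimulated mean of 27.3 ± 1.19 (SD, n = 4) in Nr4a1+/+ cells, and from 72.6 FPKM to 28.7 ± 1.59 (SD, n = 4) where the label is knockout. Its log2 change was -1.53 (SE 0.0847, limma adjusted p = 1.99e-08). These neighbouring genes, the most abundant stimulated and the most abundant unstimulated member, thus moved in opposite directions.

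Slamf6 and Ly9 changed by less than the size limit with an adjusted p under 0.05. Slamf6 fell from 36.2 FPKM to a stimulated mean of 17.2 ± 0.615 (SD, n = 4) in Nr4a1+/+ cells, and from 33.95 FPKM to 24.7 ± 2.47 (SD, n = 4) where the label is knockout (log2 change over both genotypes -0.74, SE 0.114, limma adjusted p = 0.000104). Ly9 rose from 67.3 FPKM to 75.1 ± 3.18 (SD, n = 4) and from 63.5 FPKM to 73.9 ± 0.770 (SD, n = 4), which is 0.19 on the log2 scale (SE 0.0411, limma adjusted p = 0.00152). The change of Ly9 was 0.35 rescaled to the same sum and 0.42 with median-of-ratios scaling, and it did not pass with quantile normalization (0.055, limma adjusted p = 0.239) or array weights (0.18, limma adjusted p = 0.0771). An adjusted p under 0.05 at any size was met by 78.9% of tested genes, 31.2% higher and 47.7% lower. Cd84 (0.10, SE 0.0887, limma adjusted p = 0.306) and Slamf1 (0.082, SE 0.198, limma adjusted p = 0.716) did not pass over both genotypes. On deposited FPKM their directions differed between the genotypes, as described next. Cd84 passed without the size limit when rescaled to the same sum (0.26, limma adjusted p = 0.00887) and with median-of-ratios scaling (0.33, limma adjusted p = 0.0086). Under either of these scalings Cd84 rose within wild type as well, so its opposite directions depend on the scaling. Slamf1 moved to 0.23 and 0.29 under the same scalings and to 0.41 with quantile normalization, with a limma adjusted p from 0.11 to 0.268.

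**Figure D2:**
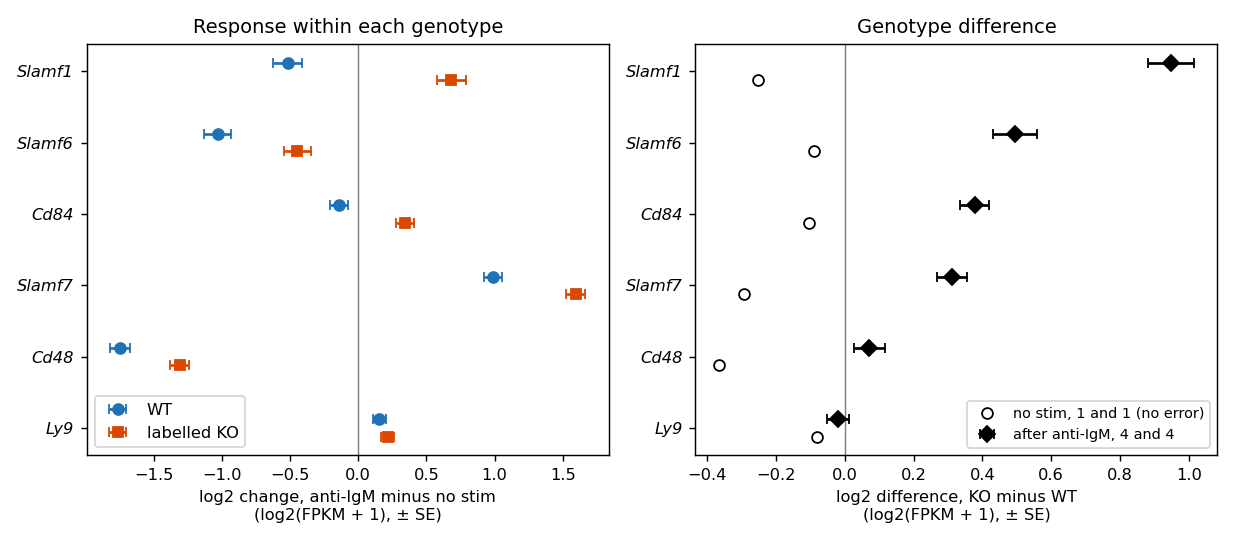
Left, log2 change with anti-IgM within wild type (circles) and within the knockout-labelled libraries (squares), ± SE from a fit in which the lone unstimulated library is assumed to vary like the stimulated ones; right, log2 difference between genotypes after anti-IgM (diamonds, ± SE) and in the unstimulated pair (open circles, no error). Slamf1 lies at -0.52 in wild type and 0.68 in the knockout-labelled libraries, and each member lies further right in the latter.

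Whether the response itself differed between genotypes was tested over all 10 libraries as 4 group means. This rests on 1 unstimulated library per genotype, each assumed to vary like the stimulated libraries. The response was higher in the knockout-labelled libraries for 5 of the 6 members at an adjusted p under 0.05, where 18.9% of tested genes passed (4.18% higher and 14.7% lower). With each library rescaled to the same sum of FPKM, 3 members passed (Slamf1, Cd84 and Slamf7), and the median over all genes tested moved from -0.096 to -0.25. The median log2 difference in response was 0.53 over the members and -0.096 over all genes tested. This comparison shares the stimulated libraries with the genotype difference given above.

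Slamf1 fell from 8.58 to 5.70 ± 0.438 FPKM (SD, n = 4) in Nr4a1+/+ cells (log2 change -0.52, limma adjusted p = 0.00136) and rose from 7.04 to 11.9 ± 0.954 FPKM (SD, n = 4) in the knockout-labelled libraries (0.68, limma adjusted p = 0.000226). The unstimulated libraries lay between the stimulated groups. The difference in response was 1.201 (SE 0.149, limma adjusted p = 0.00237). Cd84 went from 22.1 to 19.96 ± 0.740 FPKM (SD, n = 4) in Nr4a1+/+ cells (-0.14, limma adjusted p = 0.0825) and rose from 20.5 to 26.2 ± 1.24 FPKM (SD, n = 4) in the knockout-labelled libraries (0.34, limma adjusted p = 0.000969). Its difference in response was 0.48 (SE 0.0931, limma adjusted p = 0.00848). Within wild type, 32.4% of tested genes were called higher and 42.5% lower at any size, and within the knockout-labelled libraries 28.0% and 47.0%.

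For Slamf7, which rose in both genotypes, the difference in response was 0.61 (SE 0.0977, limma adjusted p = 0.00421). For Slamf6, which fell in both, it was 0.58 (SE 0.143, limma adjusted p = 0.0215), a smaller fall in the knockout-labelled libraries. For Cd48 it was 0.44 (SE 0.101, limma adjusted p = 0.0172). The stimulated groups overlapped for Cd48, and the unstimulated pair stood at 93.9 and 72.6 FPKM. Rescaled to the same sum, Slamf6 (0.41, limma adjusted p = 0.0659) and Cd48 (0.26, limma adjusted p = 0.0734) did not pass. For Ly9 the difference was 0.061 (SE 0.0705, limma adjusted p = 0.600).

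In the unstimulated pair, single libraries without a replicate check, all 6 members were listed lower in the knockout-labelled library on deposited FPKM. The log2 difference was -0.37 for Cd48, -0.29 for Slamf7, -0.25 for Slamf1, -0.10 for Cd84, -0.089 for Slamf6 and -0.082 for Ly9, against a median of 0.067 for all genes tested. The sum of all FPKM was 674961 in the wild-type and 595500 in the other library. After rescaling to the same sum the difference was -0.19 for Cd48, -0.12 for Slamf7 and -0.092 for Slamf1, and it turned to 0.068 for Cd84, 0.096 for Ly9 and 0.087 for Slamf6, against a median of 0.23. A difference larger in size than that of Cd48 was listed for 18.9% of tested genes, and for Slamf1 for 36.3%.

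**Figure D3:**
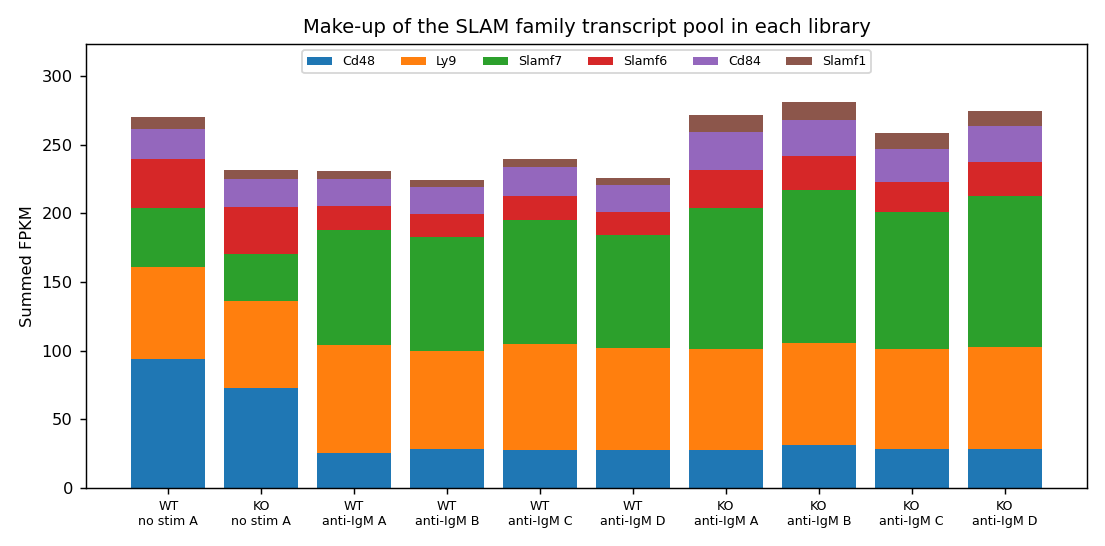
Summed FPKM of the 6 SLAM genes in each library (vertical axis, from 0), stacked by gene, for the 10 libraries on the horizontal axis. The Cd48 segment shrinks and the Slamf7 segment grows after anti-IgM in both genotypes, while the sum stays between 225 and 281 FPKM in the stimulated libraries.

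Within the summed transcripts of the family, the leading gene changed from Cd48 to Slamf7. The 6 genes summed to 270.4 FPKM in unstimulated wild type and to 232 FPKM in its knockout-labelled counterpart. After anti-IgM the sum was 230.4 ± 6.70 FPKM (SD, n = 4) in wild type, against 271.5 ± 9.71 FPKM (SD, n = 4) in the knockout-labelled libraries. Cd48 held 34.7% of the sum in the unstimulated wild-type library and 11.9% on average in the stimulated ones, and Slamf7 held 15.7% and 37.0%. In the stimulated knockout-labelled libraries Slamf1 held 4.39% on average, against 2.47% in wild type, and Ly9 held 27.2% against 32.6%. These shares describe levels per length and were not tested, since the members were chosen with earlier results known.

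The neighbourhood of the cluster was compared next. The 5 listed genes nearest on each side are Tstd1, F11r, Alyref2, Itln1 and Cd244 before Ly9 and Vangl2, Nhlh1, Ncstn, Copa and Pex19 after Slamf6. Of these 10 genes, 4 passed the filter on low values (Alyref2, Ncstn, Copa and Pex19), and 0 of the 4 were called between genotypes after anti-IgM, with log2 differences from -0.16 to -0.0013 (0 also at an unadjusted p under 0.05 in limma, where 22.1% of tested genes passed). In order along the chromosome Ly9 was not called, Slamf7 was, Cd48 was not, and Slamf1, Cd84 and Slamf6 were. For the response to anti-IgM 0 of the 4 neighbours passed the limma call with its size limit. Alyref2 (-0.90), Copa (-0.24) and Pex19 (-0.32) were lower at an adjusted p under 0.05 without it, as were 47.7% of all tested genes (at an unadjusted p under 0.05, 3 of the 4 and 48.4% of all). Ncstn, a subunit of gamma-secretase, had a lower response in the knockout-labelled libraries (log2 difference -0.45, SE 0.0730, limma adjusted p = 0.00442).

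**Figure D4:**
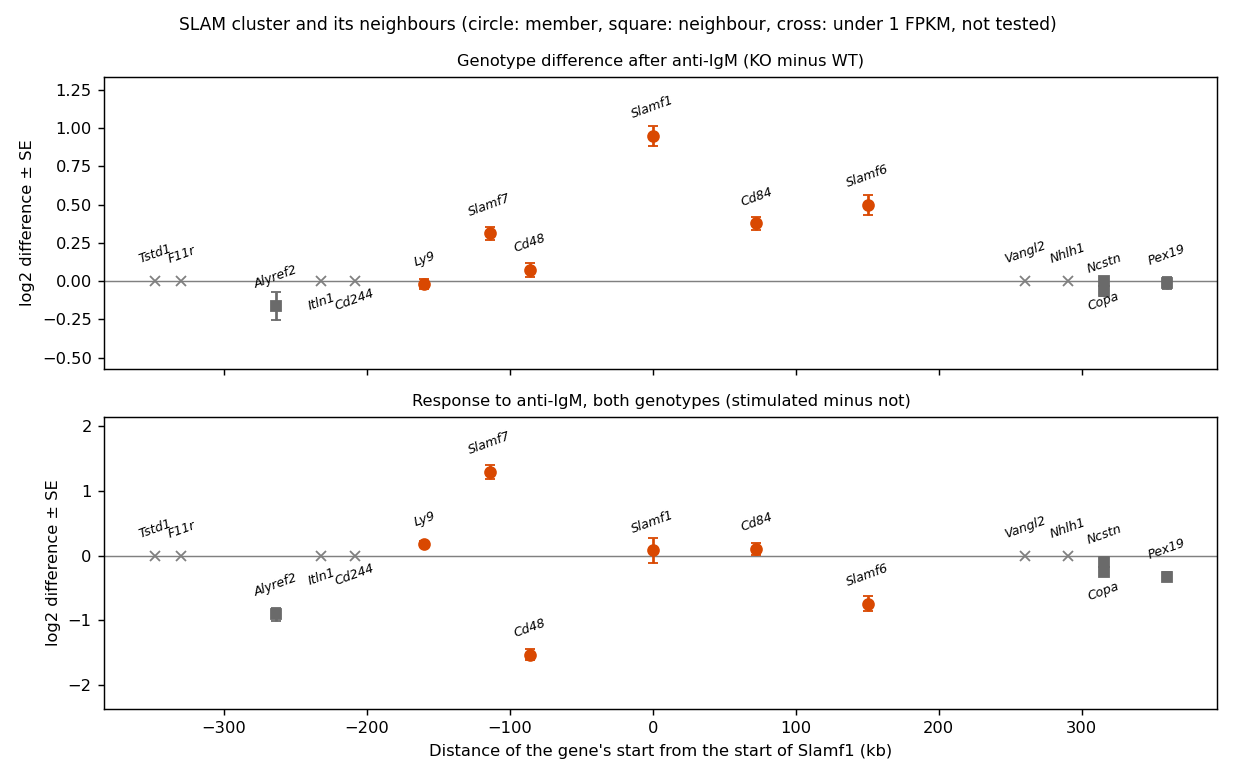
Log2 difference between genotypes after anti-IgM (top) and log2 response to anti-IgM over both genotypes (bottom), each ± SE, against the distance of each gene's start from the start of Slamf1 in kb; circles are SLAM genes, squares neighbours, and crosses, drawn at 0, genes that were not tested. Slamf1 is the highest point at the top, Slamf7 the highest and Cd48 the lowest at the bottom.

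Cd244, the gene next to Ly9, encodes 2B4, a SLAM-type receptor for CD48. It was below the filter, with a mean of 0.677 FPKM. Libraries A to D of stimulated Nr4a1+/+ cells held 1.12, 1.03, 0.89 and 0.77 FPKM, against 0.37, 0.39, 0.23 and 0.43 FPKM in the knockout-labelled set, so the groups did not overlap and the direction was opposite to that of the called members. Without the filter its log2 difference was -0.53 (SE 0.0700, limma adjusted p = 0.00704). Its low value is uncertain because of the overlap with Ly9. The unstimulated libraries were at 0.92 FPKM (wild type) and 0.62 FPKM (labelled knockout).

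The other partners of the family were low or did not pass between genotypes. Cd2, the receptor that binds CD48 on mouse lymphocytes, fell with anti-IgM from 139 FPKM to a stimulated mean of 39.8 ± 1.16 (SD, n = 4) in Nr4a1+/+ cells, and from 127 FPKM to 41.2 ± 1.74 (SD, n = 4) where the label is knockout (log2 change over both genotypes -1.69, SE 0.0514, limma adjusted p = 2.51e-10). Its ligand gene Cd48 also fell past the size limit, as did 12.4% of all tested genes. The genotype difference of Cd2 after anti-IgM was 0.049 (SE 0.0360, limma adjusted p = 0.482). Slamf9 was between 1.81 and 3.74 FPKM in all libraries, with a genotype difference of 0.15 (SE 0.109, limma adjusted p = 0.488). Slamf8 was at 0.44 FPKM or less.

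The adaptors of the SAP family were low. Sh2d1a, which encodes SAP, was listed at 0 in 8 of the 10 libraries, at 0.11 FPKM in the unstimulated knockout-labelled library and at 0.07 FPKM in stimulated wild-type library D. Sh2d1b1, which encodes EAT-2, was at 0.31 and 0.50 FPKM in the unstimulated wild-type and knockout-labelled libraries and at 1.11 ± 0.192 and 1.11 ± 0.188 FPKM (SD, n = 4 each) after anti-IgM. Both were below the filter on the mean of all 10 libraries and not tested, and Sh2d1b2 was not matched by symbol. An exact 0 in a table of estimated values can be a failed estimate.

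The signalling genes of the pathway held 25 genes, of which 24 were found and 20 tested. After anti-IgM, 3 were higher and 2 lower in the knockout-labelled libraries, against 3.91% and 5.81% of all tested genes, with a median log2 difference of -0.026. Lck, a Src-family kinase best known from T cells, rose with anti-IgM and was higher in the knockout-labelled libraries: 48.1, 46.8, 43.7 and 47.7 FPKM in wild-type libraries A to D against 66.9, 65.2, 64.8 and 64.4 FPKM (log2 difference 0.48, SE 0.0328, limma adjusted p = 3.15e-05). Before stimulation it was at 17.5 FPKM in wild type, against 25.0 FPKM in the knockout-labelled library. The T cell marker sums given above overlapped between genotypes and stayed under 2 FPKM after anti-IgM. Whether T cells had a part in the Lck difference was not tested. Sh3bp2, an adaptor that binds SLAM-proximal kinases and phospholipase C, was at 50.4 ± 2.76 and 63.0 ± 0.642 FPKM (SD, n = 4 each; log2 difference 0.32, SE 0.0372, limma adjusted p = 0.000625). Inpp5d, which encodes the lipid phosphatase SHIP-1, was at 103.0 ± 5.02 and 123 ± 4.84 FPKM (SD, n = 4 each; log2 difference 0.25, SE 0.0402, limma adjusted p = 0.00376).

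The kinases called lower were Lyn and Csk. Lyn, a Src-family kinase of B cells with activating and inhibitory roles, was at 55.8 ± 1.71 FPKM in stimulated wild type and 48.4 ± 2.05 FPKM in the knockout-labelled libraries (SD, n = 4 each; log2 difference -0.20, SE 0.0360, limma adjusted p = 0.00710). Csk, the kinase that holds Src-family kinases inactive, was at 94.8 ± 3.88 and 77.6 ± 3.89 FPKM (SD, n = 4 each; log2 difference -0.29, SE 0.0420, limma adjusted p = 0.00229). Fyn, the kinase that SAP couples to SLAM tails, did not pass (-0.018, SE 0.0328, limma adjusted p = 0.799), nor did Ptpn6, which encodes the phosphatase SHP-1 (0.0095, SE 0.0403, limma adjusted p = 0.925).

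With anti-IgM, 2 of the 20 signalling genes rose (Fyn and Lck) and 2 fell (Lyn and Csk) past the size limit, against 7.94% and 12.4% of all tested genes. Fyn went from 54.3 FPKM to a stimulated mean of 174 ± 3.61 (SD, n = 4) in Nr4a1+/+ cells, and from 80.7 FPKM to 172 ± 7.35 (SD, n = 4) where the label is knockout (log2 change over both genotypes 1.37, SE 0.0979, limma adjusted p = 1.67e-07). Lyn went from 130 FPKM to 55.8 and from 142 FPKM to 48.4 on average (-1.37, SE 0.0659, limma adjusted p = 6.63e-09). Fgr, another Src-family kinase, was lower without reaching the size limit (-0.44, SE 0.114, limma adjusted p = 0.00413). The change of Lck was 1.36 (SE 0.0417, limma adjusted p = 2.64e-10) and that of Csk -1.14 (SE 0.101, limma adjusted p = 1.06e-06), which fell short of the size limit after rescaling to the same sum (-0.98) and with median-of-ratios scaling (-0.91). Ptpn22 was under the limit (0.89) and passed it rescaled to the same sum (1.05) and with median-of-ratios scaling (1.12). Ptpn6 (-0.88, and -1.07 with quantile normalization, where it passed) did not reach the size limit, nor did Inpp5d (-0.14, SE 0.0700).

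**Figure D5:**
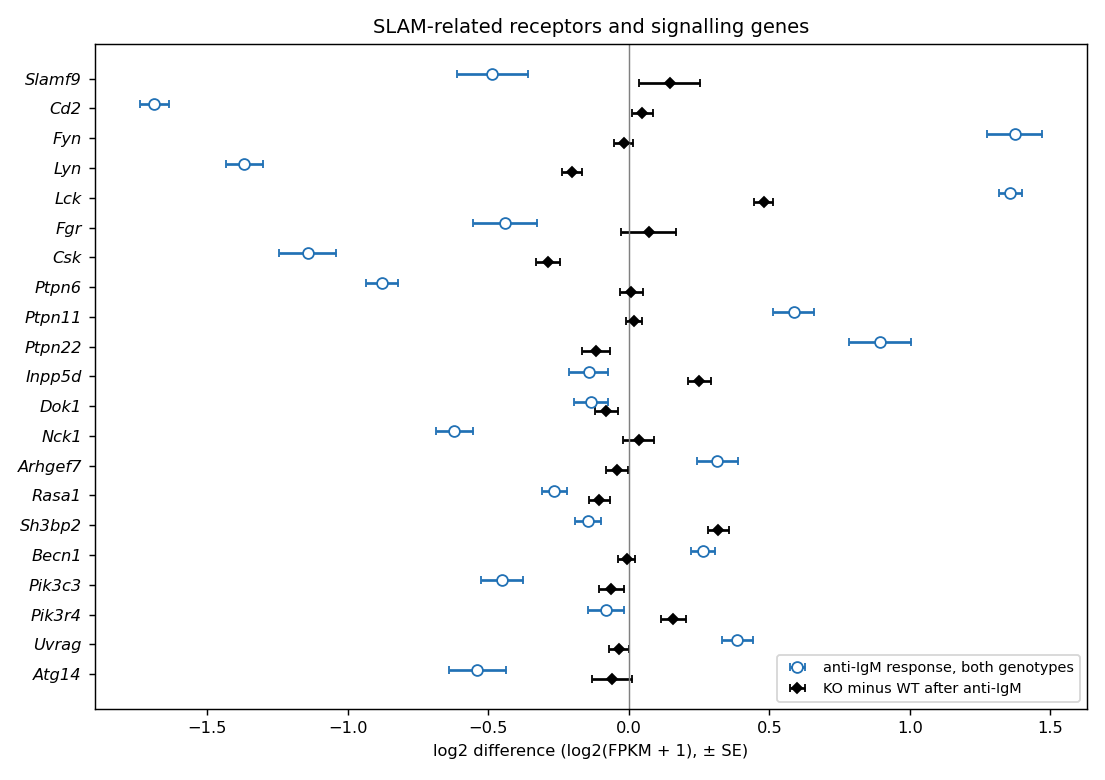
Log2 response to anti-IgM over both genotypes (open circles) and log2 genotype difference after anti-IgM (diamonds), each ± SE, for tested genes of the receptor and signalling lists that are reported here (vertical axis). Fyn and Lck lie furthest right and Cd2 furthest left in the response, and Lck has the highest genotype difference, 0.48.

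The difference in response was lower in the knockout-labelled libraries for 8 of the 20 signalling genes and higher for 0 by limma, with a median of -0.29, where 14.7% and 4.18% of all tested genes were called. At an unadjusted p under 0.05, 12 were lower and 0 higher, against 24.8% and 8.35% of all tested genes. The 8 were Fyn (-0.58), Lyn (-0.32), Csk (-0.58), Ptpn11 (-0.41), Ptpn22 (-0.62), Inpp5d (-0.34), Arhgef7 (-0.37) and Pik3c3 (-0.34), with limma adjusted p from 0.00237 for Fyn to 0.0385 for Pik3c3. All 8 were listed higher in the unstimulated knockout-labelled library, under each scaling tried. The difference in response is the stimulated genotype difference minus the unstimulated one. The choice of the 8 by that difference therefore favoured this outcome, which is not a separate result. Rescaled to the same sum, the lowest of the 8 was Lyn (0.30), against a median of 0.23 for all genes tested. With median-of-ratios scaling Lyn, Inpp5d, Arhgef7 and Pik3c3 did not pass (limma adjusted p from 0.0678 to 0.104). With quantile normalization Arhgef7 (limma adjusted p = 0.0598) and Pik3c3 (limma adjusted p = 0.107) did not pass. Inpp5d did not pass without the filter (limma adjusted p = 0.0555) or without the variance trend (limma adjusted p = 0.058). Leaving out 1 library ended the call of Inpp5d (wild-type C, limma adjusted p = 0.0503) and of Pik3c3 (wild-type B, C or D or knockout-labelled D, limma adjusted p from 0.0515 to 0.0609).

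The genes whose profile over the 10 libraries was most like that of each member were found by the root mean square distance of log2 values after subtracting each gene's mean. For Slamf1 they were H2-Q6 (0.227), Evi2a (0.247) and Lta (0.256), distances that are large beside those of other members. Their log2 genotype differences after anti-IgM were 0.71, 0.62 and 0.52. H2-Q6 has near-identical copies among class I genes, so its value is uncertain. For Slamf6 the nearest were Tlr1 (0.121), Gimap8 (0.126) and Clcf1 (0.131), and for Cd84 they were Btnl2 (0.0802), Abca5 (0.0824) and Yy2 (0.0871). For Slamf7 they were Plscr1 (0.0586), Cmtm8 (0.0738) and Il4i1 (0.0808), for Cd48 Nsmce1 (0.0677), Coro1a (0.0821) and D3Ertd751e (0.0898), and for Ly9 Pnn (0.0307), Nxf1 (0.0319) and Psmd14 (0.0359). No SLAM gene was among the 3 nearest of another. Within the family, the closest pair by this distance was Cd84 and Ly9 (0.188) and the most distant Cd48 and Slamf7 (1.13). The distance is also small between genes that each change little, and the Pearson correlation of Cd84 and Ly9 was only 0.145. By Pearson correlation the most alike pair was Slamf1 and Cd84 (0.955, at a distance of 0.268).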

How the data were processed

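RNA of 10 B cell libraries was prepared with TruSeq Stranded mRNA reagents, per the labels' protocols. The authors deposited FPKM per gene, with 2 decimals; the submitters' processing notes name STAR 2.4, RSEM 1.2.14 and mm10. Which annotation, filters and strand setting were used is not given in the sources used here. FPKM are not counts, so values were analysed as log2(FPKM + 1), which understates changes of low genes. The 10225 of 17658 genes with a 10-library mean no lower than 1 FPKM were tested with limma 3.58.1 in R 4.3.3 (lmFit, eBayes with trend, two-sided, Benjamini-Hochberg over all genes tested). Fits were tested on simulated data. The genotype difference used the 8 stimulated libraries, the response all 10 with genotype as a term, and the difference in response 4 group means. Single genes were also compared by exact permutation over 70 labellings. The members, gene lists and tests were chosen with earlier results of these data known. Genes are named as members, as called or preset genes of the signalling and neighbour lists, and as the 3 nearest profiles of each member. Gene positions and promoters came from RefSeq (GRCm38.p6), strands from GENCODE M21. No protein sequences were used here. Alternatives covered the pseudocount, filter, scaling, variance model, array weights, the letter as a block, and leaving out each library. No column was left out. Some genes of the lists are counted in them but not reported here.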

Additional observations from a re-analysis of the deposited data

Results flagged for a closer look

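The response to anti-IgM differed between genotypes, by the limma test of the difference itself, for 5 SLAM genes: Slamf1 (log2 difference 1.201), Slamf7 (0.61), Slamf6 (0.58), Cd84 (0.48) and Cd48 (0.44), all higher in the libraries labelled knockout. It differed in the other direction for Ptpn22 (-0.62), Fyn (-0.58), Csk (-0.58), Ncstn (-0.45), Ptpn11 (-0.41), Arhgef7 (-0.37), Pik3c3 (-0.34), Inpp5d (-0.34) and Lyn (-0.32). Each value rests on 1 unstimulated library per genotype. In 3 of 42 groups of 4 stimulated libraries, 1 library stood far from the other 3, where chance gives about 1 in 20 groups, or 2.1 here: Cd48 at 31.1 FPKM in knockout-labelled library B, Csk at 89.01 FPKM in wild-type library C and Pik3c3 at 14.3 FPKM in knockout-labelled library C.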

How the results depend on the processing

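Slamf1, Slamf6, Cd84 and Slamf7 kept their direction and their call between genotypes in all 20 alternatives. Between the stimulated wild-type and knockout-labelled libraries the letters showed no pairing: deviations of same-letter libraries correlated between -0.122 and 0.0445. With 1 unstimulated library per genotype, pairing of unstimulated with stimulated libraries could not be checked this way. With the letter as a replicate block 4 members were again called, and genes whose response differed numbered 1238 in place of 1931; of the 8 signalling genes called, Lyn, Inpp5d, Arhgef7 and Pik3c3 did not pass (adjusted p from 0.0644 to 0.0836). Rescaled to the same sum, genes whose response differed numbered 3637, and 3 members passed in place of 5 (Cd48 0.26, Slamf6 0.41), while Ly9 turned to -0.11. With a pseudocount of 5, 1132 genes passed the response call in place of 2078. Median-of-ratios scaling turned the genotype difference of Ly9 to 0.022 and of Fyn to 0.025. Leaving out each library in turn, the genotype difference ran from -0.034 to 0.012 for Fyn and from -0.013 to 0.041 for Ptpn6, both turning without knockout-labelled library B (Ptpn6 also without wild-type B or C). Wild type alone, which is also the fit without the unstimulated knockout-labelled library, gave a response of -0.52 for Slamf1, -0.14 for Cd84, -1.03 for Slamf6 (called), 0.99 for Slamf7 (not called), 0.025 for Inpp5d and 0.13 for Ncstn (also -0.85 for Csk, not called, and 1.202 for Ptpn22, called). Without the unstimulated wild-type library the first 6 were 0.68, 0.34, -0.45, 1.59, -0.31 and -0.32. The response turned positive rescaled to the same sum and with median-of-ratios scaling for Inpp5d (0.020, 0.091), Sh3bp2 (0.017, 0.088) and Ncstn (0.065, 0.135). The difference in response of Lck turned to 0.032 with a pseudocount of 5, 0.052 with median-of-ratios and 0.024 with quantile scaling, and ran from -0.042 to 0.0028 leaving out each library; that of Sh3bp2 was 0.029 with median-of-ratios scaling. The cause of these changes was not tested. Depth is unknown, so counting error could not be given.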
